A study of Homo sapiens with 6 samples.

Results

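Interferon receptors, their kinases and transcription factors, and genes that interferon switches on were followed in DU145, an established human prostate cancer cell line, with and without overexpression of the circular RNA circCSPP1. The genes were chosen by name as the rows of the deposited expression table whose symbol was on a list of 49 interferon genes. All 49 were found among the 19727 genes of the table. This list, and that of other pathway genes used below, were made with earlier results of these data known, so counts over them are descriptions. Of the 49 genes, 10 were regulators (receptor chains, kinases and transcription factors) and 39 were effectors (the induced genes). The study compared DU145 cells transfected with lentivirus-circCSPP1, labelled as circCSPP1 overexpression, with DU145 cells transfected with the control lentivirus-NC, labelled as normal, with 3 libraries in each group. Both groups carried a lentiviral vector and had been selected with puromycin into stable lines, and the vectors differed between the groups. Nothing in the labels says whether the 3 libraries of a group came from separate cultures, so p-values measure the spread between these libraries, which may be technical. Values are FPKM as deposited, that is, fragments scaled by the length of the transcript (per kilobase) and by the depth of the library (per 1000000 fragments).

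Interferons are secreted proteins that warn cells of infection. Type I interferons bind the receptor chains IFNAR1 and IFNAR2, which carry the kinases TYK2 and JAK1; these phosphorylate STAT proteins, among them STAT2, which with IRF9 is part of the complex ISGF3 that binds the interferon-stimulated response element (ISRE) in the promoters of antiviral genes. Type II interferon binds IFNGR1 and IFNGR2 and acts mainly through another element, the gamma-activated site (GAS). In tumour cells part of this gene set is often expressed without added interferon.

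The libraries held 28800000 to 36700000 fragments, as read from the steps between low values, and the ranges of both groups overlapped. CSPP1, the parent gene of circCSPP1, measured 9.11, 10.1 and 9.44 FPKM in lentivirus-NC and 14.5, 22.8 and 21.4 FPKM in lentivirus-circCSPP1, although a gene-level value does not separate the circle from the linear transcript or the vector. Lentivirus-circCSPP1 replicate 1 stood apart from replicates 2 and 3. Over the tested genes its correlation with them was 0.970 and 0.979, against 0.990 between replicates 2 and 3, and its departure from them followed the GC content of the transcript (Spearman correlation 0.807 over the 7663 genes above 10 FPKM with a transcript in the annotation, which share their libraries). Results are therefore also given without this library. The epithelial markers KRT8, KRT18, KRT19, EPCAM and CDH1 were all present and all lower with lentivirus-circCSPP1, with summed values of 1050 to 1280 FPKM against 2270 to 2360 FPKM; the part of this difference in the results was not tested. Of the markers of androgen-responsive prostate cells, KLK2 and KLK3 were listed at 0 in all 6 libraries. Of the leukocyte markers, CD3E was listed at 0 throughout and PTPRC at no more than 0.08 FPKM, and CD68 made up most of the summed 36.7 to 51.8 FPKM with lentivirus-circCSPP1 and 46.5 to 52.1 FPKM with lentivirus-NC. Of the plasmacytoid dendritic cell markers, CLEC4C and LILRA4 were listed at 0 in all 6 libraries, and the list summed to between 1.05 and 1.66 FPKM. The fibroblast and endothelial markers summed to 1.40 to 2.02 FPKM against 2.95 to 4.45 FPKM, most of it COL1A1.

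A subset of the effectors was lower with lentivirus-circCSPP1 together with STAT2, while the receptors and kinases did not pass the test. Values were compared on log2(FPKM + 1) with limma, and a gene was called where p, adjusted by Benjamini-Hochberg over every gene tested, was under 0.05. Of the 49 genes, 41 reached a mean of 1 FPKM and were tested, and 13 of these were called, 1 higher and 12 lower, against 11.4% of all 12322 tested genes, 4.69% higher and 6.66% lower. In 22 of the 41 the groups did not overlap, against 36.4% of all tested genes: in 20 the lentivirus-circCSPP1 libraries lay entirely below the lentivirus-NC libraries, and in 2 entirely above, against 20.5% and 16.0% of all tested genes. The called genes were IRF1, which rose, and STAT2, IFIT1, IFIT2, IFIT3, OASL, HERC5, IFITM1, IFITM2, IFITM3, IFI44, DDX60 and GBP2, which fell. Among them IFITM1 reached the mean of 1 FPKM through the lentivirus-NC libraries (mean 2.87 FPKM, against 0.703 FPKM with lentivirus-circCSPP1), so its place among the lower genes is partly due to the filter. All 13 were also called without lentivirus-circCSPP1 replicate 1, when 21 of the 41 passed, 2 higher and 19 lower, against 28.5% of all tested genes, 13.2% higher and 15.3% lower. Leaving out lentivirus-NC replicate 1, 2 or 3, or lentivirus-circCSPP1 replicate 3, left 5 called each time, STAT2, IFIT1, IFIT2, IFIT3 and OASL, against 2.43%, 2.57%, 3.30% and 3.65% of all tested genes. Leaving out lentivirus-circCSPP1 replicate 2 left 12 of the 13 and added PARP9, against 9.41%.

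**Figure D1:**
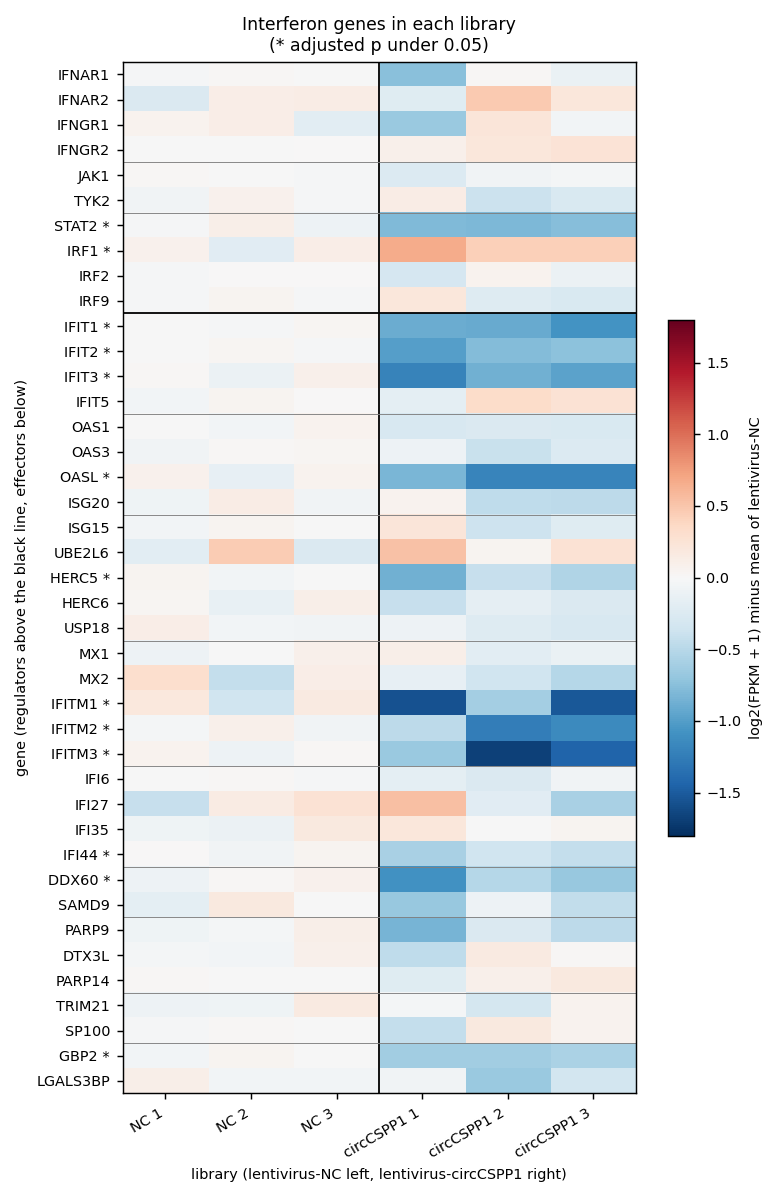
Heat map of log2(FPKM + 1) in each library minus the mean of the 3 lentivirus-NC libraries, for the 41 tested interferon genes (rows, in order of role) in the 6 libraries (columns); blue is lower, red is higher, and an asterisk marks an adjusted p under 0.05. STAT2, IFIT1, IFIT2, IFIT3, OASL, the IFITM genes and GBP2 were blue in all 3 lentivirus-circCSPP1 libraries, while most regulators stayed near white or differed between those 3 libraries.

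The receptor chains did not pass the test. IFNAR1, the low-affinity chain for type I interferon, measured 37.0, 38.2 and 37.6 FPKM in lentivirus-NC and 21.92, 38.01 and 34.5 FPKM in lentivirus-circCSPP1 (log2 fold change -0.29, standard error 0.19, adjusted p = 0.37). The low value belonged to replicate 1 alone, and without it the log2 fold change was -0.05 (adjusted p = 0.58). IFNAR2, the high-affinity chain, measured 36.03, 47.20 and 47.65 FPKM against 37.1, 60.2 and 49.9 FPKM (0.15, standard error 0.19, adjusted p = 0.66), with overlapping groups. The assignment of reads to IFNAR2 is uncertain. Of the stretches of 50 bases in its longest coding transcript, 84.5% are also held by transcripts of other annotated genes. The read-through gene AP000295.1 overlaps 44.2% of the exon bases of IFNAR2, and IL10RB-DT, on the opposite strand, 39.1%. AP000295.1 itself was listed at 0.00 to 0.99 FPKM. For type II interferon, the ligand-binding chain IFNGR1 measured 13.9, 14.5 and 11.6 FPKM against 8.01, 15.7 and 12.8 FPKM (-0.16, standard error 0.22, adjusted p = 0.69). Its partner IFNGR2 measured 48.4, 48.2 and 48.7 FPKM against 51.7, 56.2 and 57.7 FPKM (0.18, standard error 0.082, adjusted p = 0.19). IFNGR2 was the receptor chain whose groups did not overlap, and without lentivirus-circCSPP1 replicate 1 it was called (0.23, adjusted p = 0.024).

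The kinases did not pass either. JAK1, shared by both receptors, measured 31.4, 30.6 and 30.5 FPKM in lentivirus-NC and 25.86, 29.50 and 30.01 FPKM in lentivirus-circCSPP1 (log2 fold change -0.12, standard error 0.094, adjusted p = 0.47). TYK2, the partner of IFNAR1, had the highest level of the 10 regulators, 94.6, 104 and 97.4 FPKM against 109, 75.0 and 81.5 FPKM (-0.17, standard error 0.14, adjusted p = 0.46). Replicate 1 of lentivirus-circCSPP1 was above all lentivirus-NC libraries and the other two were below them, and without it TYK2 was called lower (-0.33, adjusted p = 0.016).

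The transcription factors went both ways. STAT2, the STAT that is specific to type I and type III interferon signalling, lies on chromosome 12 from 56341597 to 56360155 of GRCh38 in GENCODE release 29. Its level was 26.6, 28.9 and 25.2 FPKM in lentivirus-NC and 15.1, 14.9 and 15.5 FPKM in lentivirus-circCSPP1, a mean of 0.563 of the control level. The lentivirus-circCSPP1 libraries differed among themselves by less than 1 FPKM and all lay below lentivirus-NC. STAT2 fell by 0.79 on the log2 scale (standard error 0.095, adjusted p = 0.0047), and by 0.78 without replicate 1 (adjusted p = 0.0024). With 3 libraries against 3 an exact permutation test (two-sided) can reach no p under 0.10, which STAT2 had.

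IRF1, an activator that interferon gamma induces and that binds ISRE-like sites itself, lies on chromosome 5 from 132481609 to 132490798. It measured 23.8, 19.4 and 24.5 FPKM in lentivirus-NC and 36.3, 30.7 and 30.7 FPKM in lentivirus-circCSPP1, with no overlap. IRF1 was the single interferon gene that was called higher (log2 fold change 0.51, standard error 0.12, adjusted p = 0.039; 0.43 without replicate 1, adjusted p = 0.030). Its call was lost under 8 of the 17 alternatives, where the adjusted p reached 0.15, and 22.0% of its exon bases are overlapped on the opposite strand by C5orf56. IRF9, the DNA-binding subunit of ISGF3, measured 19.5, 20.5 and 19.5 FPKM against 22.9, 16.7 and 16.2 FPKM (-0.10, standard error 0.14, adjusted p = 0.69; -0.25 without replicate 1, adjusted p = 0.035). Replicate 1 was again on the other side of lentivirus-NC from replicates 2 and 3. Every stretch of 50 bases of IRF9 is also held by the read-through gene AL136295.5, so its value is uncertain. IRF2, which competes with IRF1 for its sites, measured 19.6, 20.1 and 20.1 FPKM against 16.0, 20.8 and 18.4 FPKM (-0.12, standard error 0.11, adjusted p = 0.56).

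**Figure D2:**
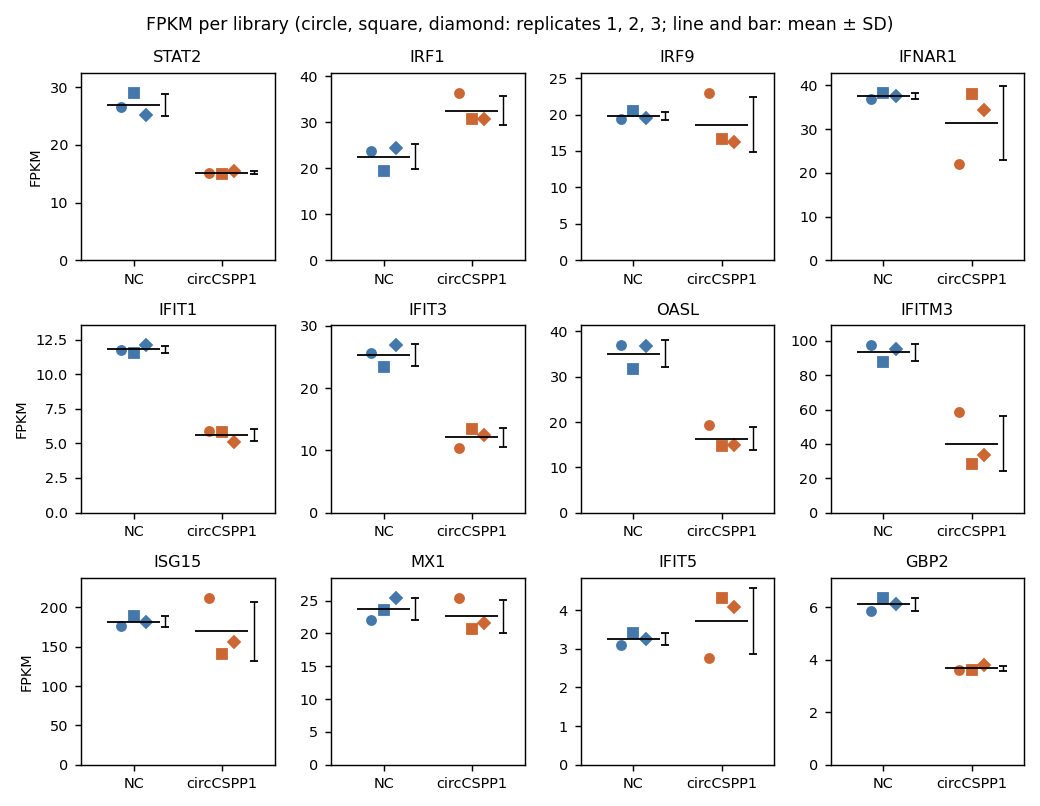
FPKM per library of 4 regulators (top row) and 8 effectors, with circles, squares and diamonds for replicates 1, 2 and 3 of lentivirus-NC (NC, blue) and lentivirus-circCSPP1 (circCSPP1, orange), a line at each mean and a bar of 1 SD (n = 3). STAT2, IFIT1, IFIT3, OASL, IFITM3 and GBP2 were lower in all 3 lentivirus-circCSPP1 libraries, IRF1 was higher in all 3, and IRF9, IFNAR1, ISG15, MX1 and IFIT5 overlapped.

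Among the effectors, 3 of the 4 IFIT genes fell. These genes lie side by side on chromosome 10, from 89283694 (start of IFIT2) to 89421001 (end of IFIT5), and encode proteins that bind viral RNA and block its translation. IFIT1, which recognises RNA with an incomplete cap, measured 11.7, 11.6 and 12.1 FPKM in lentivirus-NC and 5.87, 5.80 and 5.08 FPKM in lentivirus-circCSPP1 (log2 fold change -0.96, standard error 0.10, adjusted p = 0.0035). IFIT2 measured 14.3, 14.8 and 14.3 FPKM against 6.75, 7.97 and 8.28 FPKM (-0.84, standard error 0.11, adjusted p = 0.0059). IFIT3, the partner of IFIT1, measured 25.7, 23.4 and 26.9 FPKM against 10.4, 13.4 and 12.5 FPKM (-1.01, standard error 0.12, adjusted p = 0.0046). The means of the 3 genes with lentivirus-circCSPP1 were between 0.474 and 0.530 of lentivirus-NC, and no library of one group reached the other. Under each of the 17 alternatives all 3 remained called, with adjusted p of at most 0.043. IFIT5 did not go with them, at 3.09, 3.41 and 3.25 FPKM against 2.75, 4.32 and 4.09 FPKM (0.14, standard error 0.15, adjusted p = 0.61).

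The oligoadenylate synthetases make the second messenger that activates RNase L. Of this group and the exonuclease ISG20, OASL was called. OASL, a family member without synthetase activity that acts on RNA sensing, lies on chromosome 12 from 121019111 to 121039242, apart from the cluster of OAS1, OAS3 and OAS2 between 112906777 and 113011723. It measured 36.9, 31.6 and 36.7 FPKM in lentivirus-NC and 19.3, 14.8 and 14.8 FPKM in lentivirus-circCSPP1 (log2 fold change -1.07, standard error 0.13, adjusted p = 0.0051; -1.19 without replicate 1, adjusted p = 0.0012). OAS3 had the highest level of the group, 63.5, 67.1 and 68.1 FPKM against 62.2, 49.8 and 55.8 FPKM (-0.24, standard error 0.10, adjusted p = 0.16). OAS3 did not overlap between groups, and without replicate 1 it was called lower (-0.32, adjusted p = 0.021). OAS1 did not overlap either, at 1.83 to 2.06 FPKM against 1.41 to 1.45 FPKM (-0.28, adjusted p = 0.12). OAS2 had too low a mean to be tested, at 1.17 to 1.41 FPKM against 0.66 to 0.80 FPKM. ISG20, which degrades single-stranded RNA, was also not called (log2 fold change -0.29, adjusted p = 0.29; -0.46 without replicate 1, adjusted p = 0.012).

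The IFITM genes, whose proteins sit in membranes and hinder the entry of enveloped viruses, all fell. They lie together on chromosome 11 between 307631 and 327537. IFITM3 measured 97.3, 87.6 and 95.0 FPKM in lentivirus-NC and 58.3, 28.4 and 33.7 FPKM in lentivirus-circCSPP1 (log2 fold change -1.26, standard error 0.24, adjusted p = 0.018). IFITM2 measured 41.1, 45.1 and 40.1 FPKM against 29.99, 17.19 and 18.47 FPKM (-0.95, standard error 0.20, adjusted p = 0.024). In both genes replicate 1 lay between lentivirus-NC and the other two libraries, and without it the log2 fold changes were -1.56 and -1.19. IFITM1 measured 3.36, 1.99 and 3.26 FPKM against 0.29, 1.5 and 0.32 FPKM (-1.24, standard error 0.28, adjusted p = 0.032), and it passed the filter on low values through the lentivirus-NC libraries. Its size depended on the pseudocount, with log2 fold changes of -2.18 and -2.40 at pseudocounts of 0.1 and 0.01. At the depth of these libraries, 0.29 and 0.32 FPKM correspond to about 8 fragments each. The 3 genes are near copies, and 42.3%, 15.8% and 20.3% of the stretches of 50 bases of IFITM1, IFITM2 and IFITM3 occur in other annotated genes, mainly each other, so the split of fragments between them is uncertain. The calls of all 3 were lost without lentivirus-NC replicate 1, 2 or 3 and without lentivirus-circCSPP1 replicate 3, with adjusted p of up to 0.12.

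MX1 and MX2, dynamin-like GTPases that trap viral nucleocapsids, were not called. MX1 measured 22.1, 23.6 and 25.4 FPKM in lentivirus-NC and 25.4, 20.7 and 21.7 FPKM in lentivirus-circCSPP1 (log2 fold change -0.07, adjusted p = 0.74), and for MX2 the log2 fold change was -0.34 (adjusted p = 0.32). Both overlapped between the groups.

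ISG15, a ubiquitin-like protein that is attached to newly made proteins, had the highest level of all 49 genes. It measured 176, 189 and 181 FPKM in lentivirus-NC and 212, 141 and 156 FPKM in lentivirus-circCSPP1 (log2 fold change -0.12, standard error 0.15, adjusted p = 0.64). Replicate 1 was above and replicates 2 and 3 below every lentivirus-NC library. The size of the difference depended on 1 library, since the log2 fold change was -0.29 without replicate 1 (adjusted p = 0.020) and 0.00 without replicate 2 (adjusted p = 1.0). Of the enzymes that attach and remove it, the ligase HERC5 fell, from 13.5, 12.6 and 12.9 FPKM to 6.71, 9.49 and 8.57 FPKM (-0.61, standard error 0.14, adjusted p = 0.030). For its neighbour HERC6 the log2 fold change was -0.28 (adjusted p = 0.18), for the protease USP18, which removes ISG15 and also restrains IFNAR2, -0.21 (adjusted p = 0.25), and for the conjugating enzyme UBE2L6 0.28 (adjusted p = 0.43). HERC6 and USP18 did not overlap between groups and UBE2L6 did. USP18 shares 23.4% of its stretches of 50 bases with other genes, mainly USP41.

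Of the remaining effectors, IFI44, DDX60 and GBP2 fell. GBP2, a guanylate-binding protein induced by interferon gamma, measured 5.88, 6.37 and 6.12 FPKM in lentivirus-NC and 3.62, 3.61 and 3.80 FPKM in lentivirus-circCSPP1 (log2 fold change -0.61, standard error 0.10, adjusted p = 0.012). DDX60, a helicase that supports RNA sensing, measured 6.80, 7.42 and 7.80 FPKM against 2.90, 4.81 and 4.18 FPKM (-0.77, standard error 0.16, adjusted p = 0.026). IFI44 measured 11.1, 10.6 and 11.5 FPKM against 7.01, 8.40 and 7.98 FPKM (-0.46, standard error 0.11, adjusted p = 0.037). No library of one group reached the other in these 3 genes. IFI6, a mitochondrial and endoplasmic reticulum protein, was the most abundant of the other IFI genes, at 34.7, 35.5 and 34.1 FPKM against 30.6, 28.9 and 33.4 FPKM, and was not called (-0.17, adjusted p = 0.28). IFI27 (-0.08, adjusted p = 0.89) and IFI35 (0.08, adjusted p = 0.69) overlapped between groups, as did SAMD9 (-0.41, adjusted p = 0.18).

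PARP9 and DTX3L, partners in ADP-ribosylation and ubiquitination that are transcribed away from each other from neighbouring starts on chromosome 3, had different values. PARP9 measured 7.35, 7.56 and 8.45 FPKM in lentivirus-NC and 3.91, 6.32 and 5.34 FPKM in lentivirus-circCSPP1 (log2 fold change -0.52, standard error 0.16, adjusted p = 0.080; -0.37 without replicate 1, adjusted p = 0.045). DTX3L measured 9.66, 9.57 and 10.6 FPKM against 6.97, 11.3 and 10.1 FPKM (-0.09, adjusted p = 0.77; 0.09 without replicate 1, adjusted p = 0.47). PARP9 did not overlap between groups and DTX3L did, and whether the 2 genes differ from each other was not tested. PARP14, on the same chromosome, measured 16.5, 16.3 and 16.1 FPKM against 13.9, 17.3 and 18.5 FPKM (0.01, adjusted p = 0.96).

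The secreted glycoprotein LGALS3BP measured 72.1, 64.6 and 64.6 FPKM in lentivirus-NC and 64.3, 41.7 and 53.0 FPKM in lentivirus-circCSPP1 (log2 fold change -0.35, standard error 0.15, adjusted p = 0.18; -0.50 without replicate 1, adjusted p = 0.022). Of the nuclear body gene SP100 and the antibody receptor TRIM21, neither was called, with log2 fold changes of -0.06 (adjusted p = 0.84) and -0.10 (adjusted p = 0.69). The effectors with a mean under 1 FPKM, apart from OAS2, were GBP1 (0.73 to 1.03 FPKM over the 6 libraries), BST2 (0.22 to 1.15 FPKM), RSAD2 (0.00 to 0.41 FPKM), SAMD9L (0.05 to 0.27 FPKM), XAF1 (0.00 to 0.25 FPKM), TRIM22 (0.00 to 0.25 FPKM) and IFI44L (0.00 to 0.07 FPKM). All 7 overlapped between the groups and none of them was tested.

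**Figure D3:**
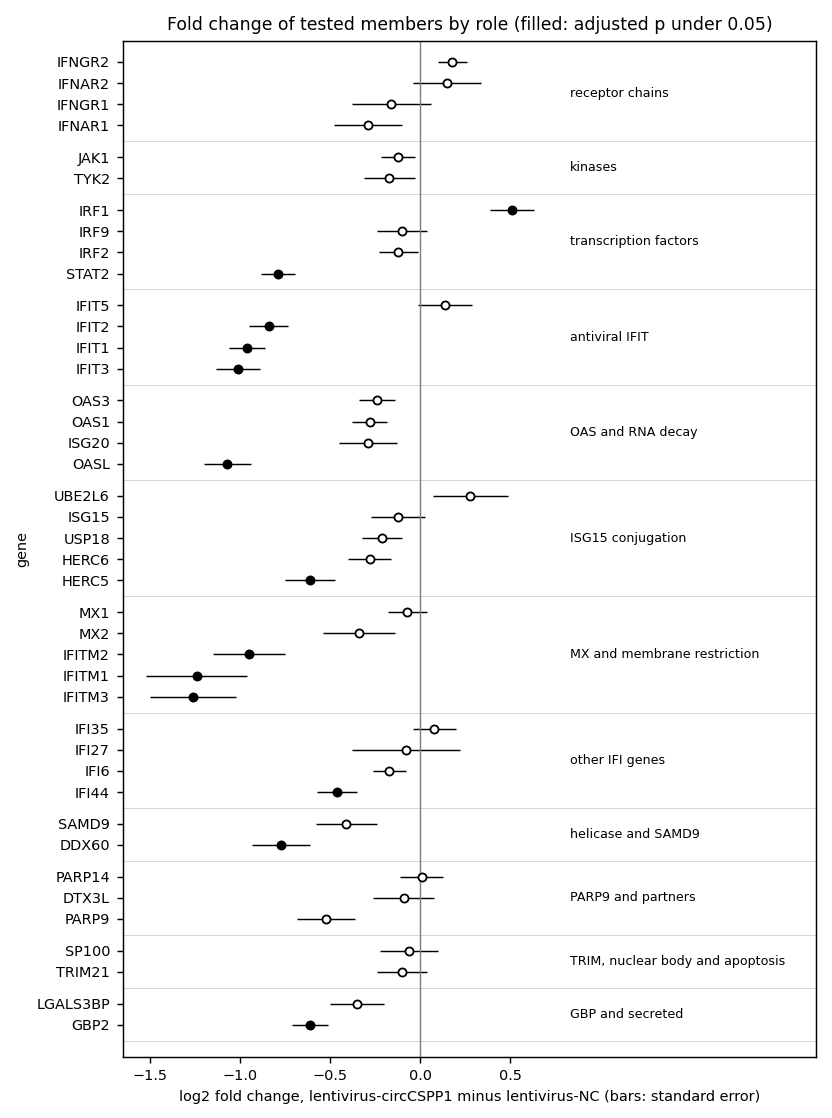
Log2 fold change of log2(FPKM + 1), lentivirus-circCSPP1 minus lentivirus-NC, with its standard error (bars), for the 41 tested interferon genes grouped by role; filled points had an adjusted p under 0.05. With the pseudocount of 1 called effectors lay between -1.26 and -0.46, and the receptor chains and kinases between -0.29 and 0.18.

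Set side by side, the regulators had a median log2 fold change of -0.12 over 10 genes and the effectors of -0.29 over 31 tested genes, against -0.0275 over all tested genes. Of the regulators 2 of 10 were called, 1 in each direction, and of the effectors 11 of 31, all lower, against 11.4% of all tested genes, 4.69% higher and 6.66% lower. The 11 included IFITM1, which passed the filter on low values through lentivirus-NC. Over all 39 effectors with no filter on low values the median was -0.24, and 0 were called higher and 11 lower, against 8.20% of the 17116 genes tested that way, 3.07% higher and 5.13% lower. The median of the effectors, relative to the lentivirus-NC mean, was -0.42, -0.36 and -0.42 in lentivirus-circCSPP1 replicates 1, 2 and 3, which scattered little. That of the regulators was -0.23, 0.04 and -0.08, so the low regulator median came with replicate 1. Over all tested genes the medians in the same libraries were -0.082, 0.022 and -0.006, also lowest in replicate 1. Without replicate 1 the median log2 fold changes were -0.04 for the regulators and -0.37 for the effectors. The genes of a list are not replicates of a condition, and these medians carry no test.

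The promoters of these genes were searched for the ISRE and the GAS. The effectors were listed as genes that interferon induces, and the ISRE is an element of such genes. A high share of matches among the effectors therefore comes with the list and is not a result of these data. Promoter windows of 300 bases, 250 before and 50 after each gene's start, were taken from RefSeq (GRCh38.p14), which gave 39 of the 49 genes a window; IFIT2, IFITM2, OASL, GBP2, OAS2, MX2, TRIM22, USP18, IFNAR2 and IRF2 had no entry. The ISRE was searched as GAAANNGAAA on both strands, which reads TTTCNNTTTC where the match is on the other strand, and overlapping matches were allowed. At least 1 window held it in 24 of the 31 effectors and 0 of the 8 regulators that had one, against 4.38% of the 27305 genes with a window. Of the called effectors with a window, 7 of 7 held it, and so did 13 of the 18 effectors that were tested and not called. Tested effectors with the match had a median log2 fold change of -0.32 over 20 genes, from -1.26 to 0.14, and those without of -0.06 over 5 genes, from -0.28 to 0.28. The match was thus present in genes that fell and in genes that were not called. The GAS, searched as TTCNNNGAA, which reads the same on both strands, was found in 10 of the 39 genes, among them IRF1 and IRF9, against 9.38% of all genes with a window. A match is a description of the letters and not a measured binding site. The windows of 30 bases below hold the ISRE, in capitals, of the called effectors that had a promoter window, each read 5′ to 3′ along its gene. Here and in the comparison that follows, 1 match per gene is shown. Several genes held more, among the called effectors IFIT1, IFIT3, IFITM1, IFITM3, HERC5 and DDX60. The IFIT3 match shown lies at the more downstream of its 2 listed starts.
IFIT1, chr10:89392510-89392539, plus strand: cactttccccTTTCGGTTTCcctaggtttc
IFIT3, chr10:89332468-89332497, plus strand: gttccatcagTTTCACTTTCctttcccctt
IFITM1, chr11:314024-314053, plus strand: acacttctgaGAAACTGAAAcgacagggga
IFITM3, chr11:320876-320905, minus strand: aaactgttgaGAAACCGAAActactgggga
HERC5, chr4:88457035-88457064, plus strand: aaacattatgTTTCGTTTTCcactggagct
DDX60, chr4:168318786-168318815, minus strand: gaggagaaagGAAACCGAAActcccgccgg
IFI44, chr1:78649761-78649790, plus strand: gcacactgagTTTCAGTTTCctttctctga

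The same element stood in genes that were not called, shown for comparison. In PARP9 and DTX3L a single stretch of chromosome 3 serves as the window of both genes, read from opposite strands.
ISG15, chr1:1013380-1013409, plus strand: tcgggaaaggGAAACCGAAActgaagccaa
IFIT5, chr10:89414513-89414542, plus strand: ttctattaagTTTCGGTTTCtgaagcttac
MX1, chr21:41420559-41420588, plus strand: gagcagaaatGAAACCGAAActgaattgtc
IFI6, chr1:27672288-27672317, minus strand: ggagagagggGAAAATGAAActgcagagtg
DTX3L, chr3:122564322-122564351, plus strand: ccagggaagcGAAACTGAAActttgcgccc
PARP9, chr3:122564322-122564351, minus strand: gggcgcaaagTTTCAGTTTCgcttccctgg

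Differences among the lentivirus-circCSPP1 libraries in these genes followed the base composition of their transcripts. Over the 41 tested interferon genes, the departure of replicate 1 from the mean of replicates 2 and 3 had a Spearman correlation of 0.79 with the GC content of the longest coding transcript; the points share their libraries, so the value is a description. Replicate 1 was lower in transcripts of low GC content, such as IFNGR1 (40.2% GC, departure -0.75) and IFNAR1 (42.3% GC, -0.70), and higher in transcripts of high GC content, such as IFITM3 (56.9% GC, 0.89) and ISG15 (63.4% GC, 0.51). STAT2 (51.6% GC, -0.01), IFIT1 (42.2% GC, 0.10) and GBP2 (46.9% GC, -0.03) hardly differed between these libraries. After correction of each library for GC content and transcript length, chosen after the data had been seen, all 13 called genes remained called. OAS1, OAS3, PARP9 and LGALS3BP were added, all lower. That made 1 higher and 16 lower, against 28.6% of the 12305 genes tested that way, 13.0% higher and 15.6% lower. IFNGR2, TYK2, IRF9, ISG15 and ISG20 were called without replicate 1 but not after this correction (adjusted p of 0.11 to 0.38).

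**Figure D4:**
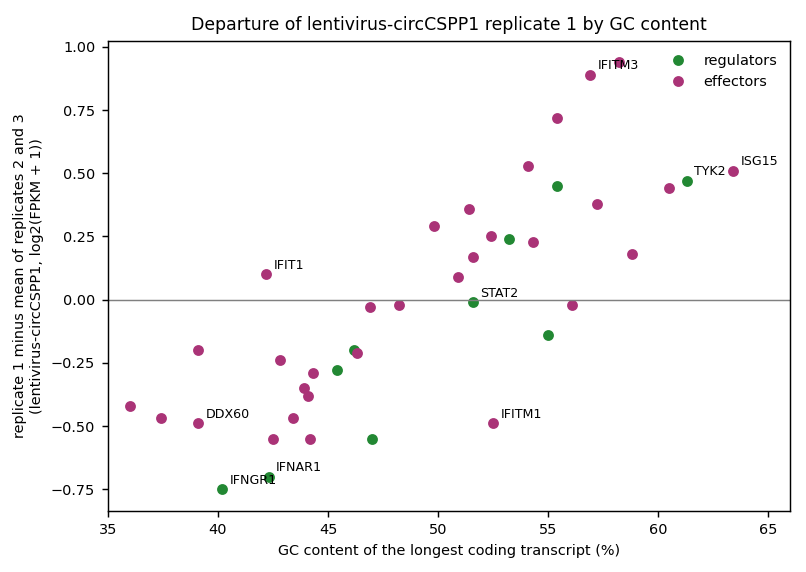
Departure of lentivirus-circCSPP1 replicate 1 from the mean of replicates 2 and 3, in log2(FPKM + 1), against the GC content of the longest coding transcript in percent, for the 10 regulators (green) and 31 tested effectors (purple). Most points at low GC content lie below 0 and most at high GC content above it, the lowest at -0.75 (IFNGR1, 40.2% GC) and the highest at 0.94 (IFI27, 58.2% GC), with IFITM1 below the others of like GC content at -0.49.

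Other genes of the pathway, from a list of 43 outside the 49, were called in 7 of the 28 that were tested, 1 higher and 6 lower, against 11.4% of all tested genes, 4.69% higher and 6.66% lower. The ligase TRIM25, which ubiquitinates the RNA sensor RIG-I, rose from 53.6, 55.0 and 52.8 FPKM in lentivirus-NC to 94.4, 97.9 and 93.6 FPKM in lentivirus-circCSPP1 (log2 fold change 0.81, standard error 0.073, adjusted p = 0.0021). TRIM25 was filed among the effectors of this second list, so the called effectors of both lists together were not all lower. SOCS3, a feedback inhibitor of JAK kinases, fell from 35.1, 36.6 and 33.7 FPKM to 20.3, 17.3 and 18.0 FPKM (-0.89, adjusted p = 0.0037). The SOCS family member CISH (-0.60, adjusted p = 0.039), the phosphatase PTPN6 (-0.50, adjusted p = 0.040), STAT3 (-0.46, adjusted p = 0.012), STAT4 (-0.78, adjusted p = 0.016) and the membrane protein LY6E (-0.57, adjusted p = 0.040) were also lower. PTPN6 lost its call under 9 of the 17 alternatives, LY6E under 8, STAT4 under 5 and STAT3 under 4. CISH lost its call under 8 of the 16 alternatives that tested it. Adjusted p reached 0.16 for PTPN6 and 0.14 for LY6E and CISH. TRIM25 and SOCS3 stayed called under all 17. CISH passed the filter on low values through the lentivirus-NC libraries, with a mean of 1.89 FPKM against 0.897 FPKM, and its log2 fold change was -1.06 with a pseudocount of 0.01. IRF7, which amplifies the type I response, measured 11.5, 10.6 and 12.5 FPKM against 20.87, 13.98 and 16.2 FPKM (0.51, adjusted p = 0.076), and for IRF3 the log2 fold change was -0.34 (adjusted p = 0.056). The groups of IRF7 and of IRF3 did not overlap.

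The interferon genes themselves were near or at 0. IFNG, IFNL2 and IFNL3 were listed at 0 in all 6 libraries, and IFNB1 at 0.00 to 0.10 FPKM, IFNK at 0.00 to 0.06 FPKM, IFNA1 at 0.04 to 0.20 FPKM and IFNL1 at 0.00 to 0.27 FPKM. IFNE, an epithelial type I interferon, was the most abundant, at 0.67, 0.56 and 0.87 FPKM in lentivirus-NC and 0.13, 0.21 and 0.35 FPKM in lentivirus-circCSPP1. The groups of IFNE did not overlap, and it had too low a mean to be tested. For the type III receptor chain IFNLR1 the log2 fold change was 0.19 (adjusted p = 0.48), and for JAK2, the partner of IFNGR2, 0.05 (adjusted p = 0.90).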

How the data were processed

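The data are paired-end RNA-seq of polyadenylated RNA, in 6 libraries of DU145 cells. The authors deposited 1 table of FPKM values, rounded to 2 decimals, with 1 column per library. The labels name hg38; the aligner, counting program and annotation are not given in the sources used here. Columns were matched to samples by group and replicate number, and 0 columns were left unused. The interferon genes and lists were chosen with earlier results of these data known.

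Genes whose mean reached 1 FPKM were tested on log2(FPKM + 1) with limma 3.58.1 in R 4.3.3 (lmFit, then eBayes with trend, a two-sided test without covariates), adjusted by Benjamini-Hochberg over all tested genes. Fold changes on this scale understate those of low genes. The fit was tested on simulated data. Depth was read from short genes (1 transcript, below 800 nt) as the step whose multiples their low values met within 0.15; transcripts and coordinates came from GENCODE release 29. Named were all regulators, called effectors, and for each role the effector with the highest mean and that with the largest difference without overlap; other members were named to account for them. Figures were drawn with matplotlib 3.10.9. Some genes of the lists are not reported here.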

Additional observations from a re-analysis of the deposited data

How the results depend on the processing

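The 16 alternatives fixed at the start were other pseudocounts, filters, scalings and variance models, a replicate block, and fits without 1 library; the GC and length correction was chosen after seeing the data. Same-numbered libraries did not deviate together (correlations 0.0734, 0.00653 and 0.0572), so the numbers were not taken as a pairing. STAT2, IFIT1, IFIT2, IFIT3 and OASL were called under all 17. The 13 called interferon genes became 7 without moderation of the variance, 9 with the replicate block, and 5 to 21 when 1 library was left out. The 7 other pathway genes became 3 without moderation, 5 with the block, 13 after the GC correction, and 2 to 11 without 1 library. The 1399 calls over all genes became 834, 923, 3523, and 300 to 3512 in the same order. The median of the effectors moved from -0.29 to -0.36 with a pseudocount of 0.1 or 0.01, to -0.24 without a filter, and lay between -0.37 and -0.28 with 1 library left out, when its distance to the median of the regulators lay between -0.33 and -0.16. With 1 library left out the sign turned for IFNGR1 (0.09 without lentivirus-circCSPP1 replicate 1), DTX3L (0.09 without replicate 1, -0.22 without replicate 2), SP100 (0.12 without replicate 1, -0.19 without replicate 2), IFNAR2 (-0.01 without replicate 2, 0.33 without replicate 1), JAK2 (-0.12 without replicate 2, 0.25 without replicate 1), TRIM21 (0.01 without replicate 2, -0.18 without replicate 3) and PARP14 (0.13, -0.02 and -0.07 without replicates 1, 2 and 3), and ISG15 came to 0.00 without replicate 2. That of IFI27 turned with quantile normalization (0.07) and lay between -0.40 and 0.17 without 1 library. None of these values was called; the cause was not tested.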
